A study of Saccharomyces cerevisiae with 5 samples.

Results

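The region described here is the promoter of TVS1 (YCR061W) next to ARS315, an early-efficient replication origin on chromosome III of Saccharomyces cerevisiae. In the R64 annotation TVS1 lies at 225563 to 227458 on chromosome III, on the Watson strand, and the gene before it is TAH1 (YCR060W), which codes for an Hsp90 cofactor and ends at 224734. The 828 bp between both genes hold no other gene of the annotation. The promoter was chosen by position, as the last 397 positions of the ARS315 chromatin ring, out of 4597 positions of all 4 rings in the data. Positions are counted here from 1, at the end near the origin, to 397, at the end near TVS1. The choice rests on position alone and on no measured value, although it was made with earlier results of these data known, and the place of the ring on the chromosome was not used here. The promoter was divided into 4 tiles of 90 bp. These are the ARS-side flank (1 to 90), the ARS-side and the gene-side tile of the center (91 to 180 and 181 to 270) and the gene-side flank (271 to 360). It also holds 13 complete windows of 30 bp.

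The rings were cut out of the chromosome by site-specific recombination in cells arrested in G1 with alpha-factor, purified through LexA and treated with DNA methyltransferases. EcoGII methylates adenines, M.CviPI cytosines in GpC and M.SssI cytosines in CpG, and DNA that is wrapped in a nucleosome or bound by a protein is methylated less. Single molecules were then read on a Nanopore sequencer (MATAC-Seq). All strains were MATa with ura3Δ0, leu2Δ0, his3Δ1, met15Δ0 and bar1::kanMX4, carried recombination and LexA sites outside the third nucleosome on either side of ARS315, and held LexA-TAP under the TEF2 promoter and R recombinase under GAL1-10 on chromosome I. They were grown in YPR medium, and galactose (2%) was added with alpha-factor. The groups were wildtype (1 library, labelled replicate 2), isw2Δ (isw2delta::ura3, 2 libraries) and ies6Δ (ies6delta::his, 2 libraries). The labels name 1 ARS315 strain for each genotype, and each library pools the strains of 4 origins. The study describes the libraries of a genotype as biological replicates, and p-values measure only the spread between these libraries. With 1 wildtype library, p-values against wildtype use the spread of the mutant libraries alone. They hold no measure of variation between wildtype libraries. ISW2 and IES6 lie outside the rings, and the deletions could not be checked in these data.

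Promoters of budding yeast usually hold a nucleosome-free region (NFR) between a nucleosome upstream and the first nucleosome of the gene. Isw2 is the ATPase of a remodeler that slides nucleosomes, in many promoters from the sides toward the NFR. Ies6 is a subunit of INO80, which spaces nucleosomes and positions those next to NFRs. Stretches of A on one strand and T on the other are a common feature of yeast NFRs and disfavour nucleosomes.

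Each position of the ring was called on a single strand, A and C on forward reads and G and T on reverse reads, where the methylated base is the adenine or cytosine across from the T or G. Forward reads gave 188 positions of the promoter and reverse reads the other 209. This pattern allowed the study's primers to be placed on the ring. A pair of 25-base stretches of the promoter was found in this way, each with a match at 25 of 25 positions, against 22 and 21 at the best other place. They are shown because they give the bases behind the values of the center and of the gene-side flank. They are written 5′ to 3′ on the strand of the forward reads, with capitals at C and G of a CpG or GpC and lower case at all other bases.
Center, promoter positions 180 to 204: GCGgtttttttgttcCGgatttttt
Gene side, promoter positions 325 to 349: GCattgtactcttaataccccaacC
The stretch of the center holds runs of 7 and of 6 T. The stretch of the gene side is the last yeast sequence of the ring, and its final C is a CpG with the first base of the adapter that follows. The 25 positions after it match this adapter, which joins the ring to the excision cassette, so that only 349 of the 397 positions are yeast sequence and the last 48 belong to the recombination and LexA cassette. The gene-side flank therefore holds 79 yeast positions and 11 of the cassette. The window that ends at 360 is mixed, and the next, at 361 to 390, is cassette alone. No other sequence of the promoter was known here, and motifs were not searched.

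The ARS315 ring was read 1477 times in wildtype (697 forward and 780 reverse reads) and 1560 times in each mutant library. The methylation profile of a library joins the percent of molecules methylated at each position and is divided by the mean of a nucleosomal array, a spike-in of the same library. This quotient is called the normalized methylation level, so that 1 is the mean of the array. The array mean of wildtype was 6.96%, that of isw2Δ 12.2 and 11.8%, and that of ies6Δ 10.2 and 9.02%. In a naked plasmid, the second spike-in, 25.0% of wildtype calls and 33.0 to 34.8% of calls in the mutants were methylated.

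The wildtype library stands apart from the mutant libraries in which bases were methylated. In the naked plasmid, which holds no nucleosomes, 242 adenines of known position were methylated at 35.6% on average in wildtype. In isw2Δ this was 59.1 and 61.1%, and ies6Δ was at 58.0 and 59.2%. The 77 cytosines in CpG or GpC of the same plasmid were methylated at 22.7% in wildtype, but only at 4.09 and 5.16% in isw2Δ, with 6.34 and 3.59% for ies6Δ. Cytosine over adenine methylation in naked DNA was thus 0.638 in wildtype and between 0.0606 and 0.109 in the 4 mutant libraries. The ARS315 ring gave the same order. Its 89 known adenines were at 10.3% in wildtype, at 28.6 and 28.1% in isw2Δ and at 20.6 and 17.97% in ies6Δ. Its 33 cytosines in CpG or GpC were at 13.6%, 6.10 and 7.25%, and 6.79 and 6.50% in the same order. Dividing by the array changes all bases of a library alike and does not remove this difference. The part of this difference in the comparisons with wildtype was not tested over the whole promoter, since its sequence was not known here. isw2Δ and ies6Δ libraries were alike in both base classes of the naked plasmid, and the comparison between them comes first. In the ARS315 ring, however, the isw2Δ libraries were higher in adenines, while the cytosines overlapped.

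**Figure D1:**
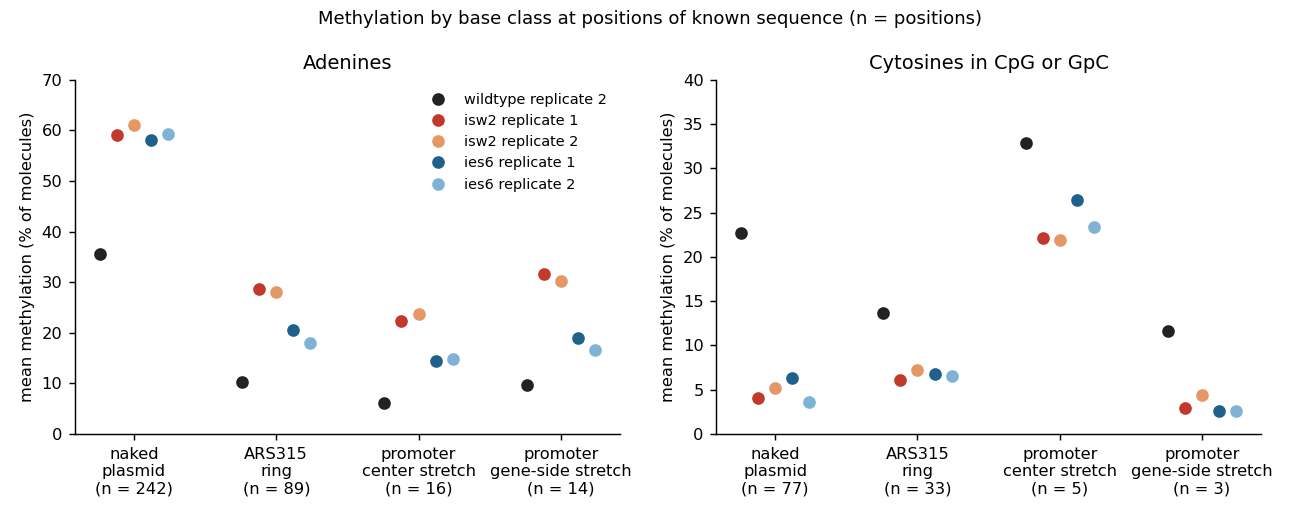
Mean methylation (percent of molecules) of adenines (left) and of cytosines in CpG or GpC (right) at positions of known sequence in the naked plasmid, the ARS315 ring and the 25-base stretches of the promoter center and gene side. Each point is a library and n is the number of positions; wildtype is lowest in all 4 sets of adenines and highest in all 4 sets of cytosines.

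The comparison of isw2Δ with ies6Δ asks whether the promoter differs between the loss of Isw2 and the loss of Ies6. By itself it does not show a change from wildtype. Both flanks of the promoter were more methylated in isw2Δ than in ies6Δ, while the level of the center was nearly the same. In the ARS-side flank, the level was 2.09 and 2.169 in the isw2Δ libraries and 1.38 and 1.38 in the ies6Δ libraries (2.13 ± 0.058 and 1.38 ± 0.0013, SD, n = 2 each). The isw2Δ libraries lay above both ies6Δ libraries, by a log2 change of 0.62 (1.54-fold, SE 0.094, limma adjusted p = 1.11e-07). In the gene-side flank the libraries were at 1.95 and 2.02 in isw2Δ and at 1.49 and 1.56 in ies6Δ, again without overlap, with a log2 change of 0.38 (1.30-fold, SE 0.094, limma adjusted p = 0.00244). Over its 79 yeast positions, the change of this flank was 0.36 (limma adjusted p = 0.005).

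Neither tile of the center passed the test. In the ARS-side tile, levels were 2.76 and 3.02 in isw2Δ and 2.87 and 3.04 in ies6Δ, with a log2 change of -0.03 (95% interval -0.22 to 0.15). The gene-side tile was at 1.99 and 2.12 in isw2Δ and at 1.91 and 2.05 in ies6Δ, with a log2 change of 0.05 (95% interval -0.13 to 0.24). In both tiles the libraries of the mutants overlapped.

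Of the 48 tiles of the 4 rings, 2 were called between isw2Δ and ies6Δ (4.17%), and both of them are flanks of this promoter. Each tile has only 2 residual degrees of freedom, and limma pooled the spread over all 48 tiles, so that every tile has the same standard error. The spread of the windows was pooled in the same way. The small p-values thus treat tiles or windows of the same libraries as independent measures of the spread. They do not rest on the 2 libraries of each mutant in a single tile alone. Without isw2Δ replicate 1, the ARS-side flank was at a log2 change of 0.65 (limma adjusted p = 0.0535) and the gene-side flank at 0.41 (0.279), and without isw2Δ replicate 2 at 0.59 (0.0851) and 0.36 (0.501). Leaving out either ies6Δ library kept both calls.

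Of the 152 windows of the 4 rings, 5.26% were called between isw2Δ and ies6Δ, 3.29% as higher and 1.97% as lower in isw2Δ. Higher windows were thus not confined to this promoter. In the ARS305 ring, those at ring positions 631 to 660 (log2 change 0.68) and 661 to 690 (0.48) were higher in isw2Δ. The lower windows were at ring positions 751 to 780 of ARS305 (-0.37) and at 91 to 120 (-0.49) and 751 to 780 (-0.39) of ARS315. Of the 13 promoter windows 3 were called, all higher in isw2Δ, and their median log2 change was 0.22, against 0.08 over all windows. The window with the largest change of the promoter was that at 31 to 60, with levels of 2.46 and 2.59 in isw2Δ and 1.38 and 1.29 in ies6Δ (1.89-fold, log2 change 0.92, SE 0.12, limma adjusted p = 5.12e-11). At 1 to 30 the levels were 1.446 and 1.498 against 0.982 and 0.885 (1.58-fold, limma adjusted p = 4.93e-06). In isw2Δ this outermost window was above the array mean, and in ies6Δ it was just below it. On the gene side the window that ends at 360 was called, with 1.558 and 1.598 in isw2Δ and 1.11 and 1.11 in ies6Δ (1.42-fold, limma adjusted p = 0.00123). It holds 19 yeast positions. The 3 other flank windows made of yeast sequence alone, which end at 90, 300 and 330, had log2 changes of 0.35, 0.33 and 0.35 and did not pass (limma adjusted p = 0.0575, 0.0780 and 0.0575). The 6 windows of the center had log2 changes between -0.17 and 0.10, and none was called. The window of the cassette alone, at 361 to 390, was at 1.99 and 2.05 in isw2Δ and 1.71 and 1.76 in ies6Δ (log2 change 0.22, limma adjusted p = 0.405).

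**Figure D2:**
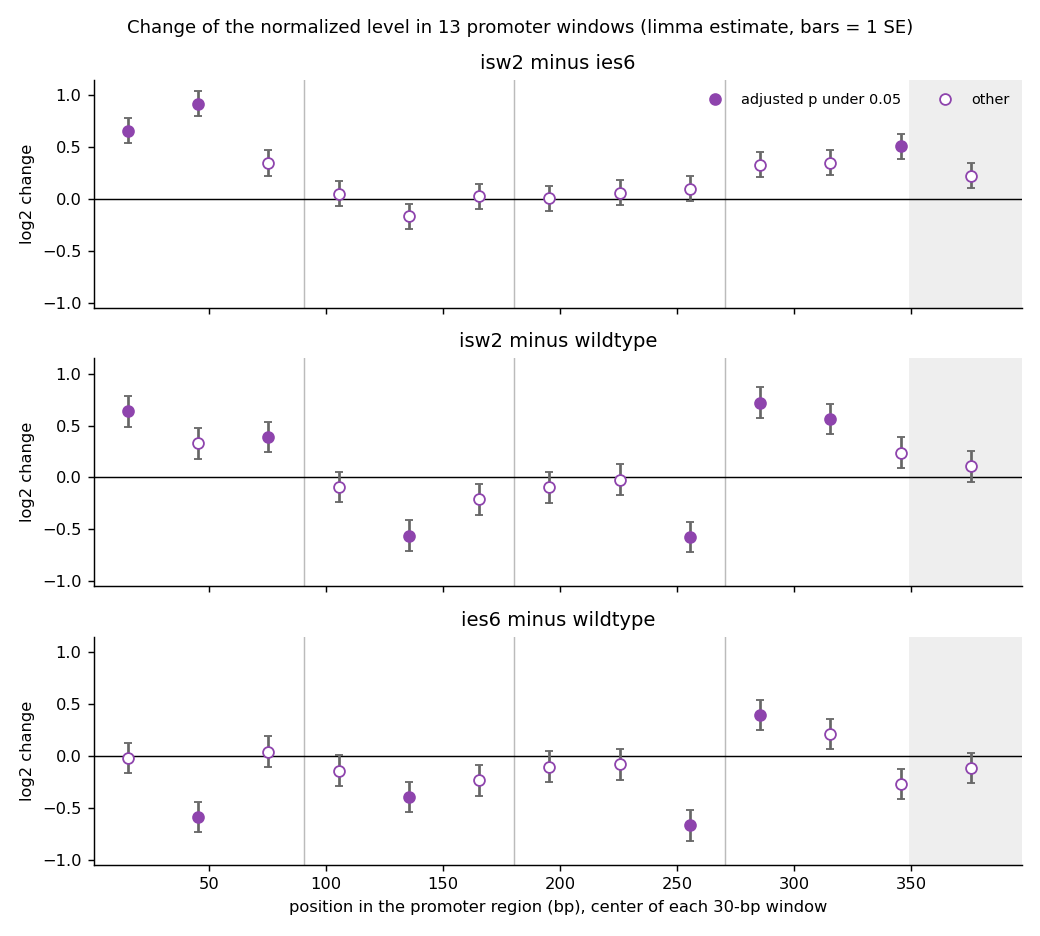
Log2 change of the normalized methylation level (limma estimate with bars of 1 SE) in the 13 windows against their position in the promoter, for isw2Δ minus ies6Δ, isw2Δ minus wildtype and ies6Δ minus wildtype; grey lines part the tiles and the grey field is the cassette. Filled points passed the adjusted threshold; between isw2Δ and ies6Δ these are the windows that end at 30, 60 and 360, and the 6 windows of the center lie between -0.17 and 0.10.

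The same difference was seen position by position. Both isw2Δ libraries lay above both ies6Δ libraries at 66 of 90 positions of the ARS-side flank and at 66 of 90 of the gene-side flank, where the opposite order was found at 3 and 1 positions. Over the whole ring this was so at 28.8% of positions. In the center, 65 of 180 positions were higher in both isw2Δ libraries and 56 lower. Each strand alone gave the same direction. On forward reads the ARS-side flank was at 2.18 and 2.13 in isw2Δ and 1.49 and 1.52 in ies6Δ, and on reverse reads at 1.93 and 2.165 against 1.21 and 1.18. The gene-side flank was at 1.76 and 1.78 against 1.42 and 1.42 on forward reads, where it was not called (limma adjusted p = 0.158), and at 2.11 and 2.27 against 1.56 and 1.69 on reverse reads.

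The ratio of a flank to the center of the same library does not depend on any spike-in. For the ARS-side flank it was 0.878 and 0.844 in isw2Δ, 0.579 and 0.543 in ies6Δ and 0.533 in wildtype. For the gene-side flank it was 0.821 and 0.788 in isw2Δ, 0.621 and 0.615 in ies6Δ and 0.463 in wildtype. With 2 libraries against 2 this ratio was not tested. By this ratio over all positions, the isw2Δ libraries had the flattest promoter on either side. Between the known adenines of the gene-side and center stretches, the ratio was 1.41 and 1.28 in isw2Δ and 1.31 and 1.12 in ies6Δ. There the libraries of the mutants overlapped.

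With the naked plasmid as the scale instead of the array, isw2Δ exceeded ies6Δ by a log2 change of 0.90 in the ARS-side flank and of 0.66 in the gene-side flank, and both stayed past the threshold (limma adjusted p = 0.00584 and 0.0137). On this scale the center was higher too, by 0.28, as the array itself was methylated at 36.5 and 34.0% of the naked plasmid in isw2Δ and at 30.8 and 27.4% in ies6Δ. The equal level of the center is thus a statement relative to the array and over all bases together, whereas the higher flanks were found with both spike-ins.

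The 25-base stretches give this comparison by base. In the stretch of the center, its 16 adenines were methylated at 22.4 and 23.6% in isw2Δ and 14.4 and 14.8% in ies6Δ, while its 5 cytosines in CpG or GpC were at 22.1 and 21.9% in isw2Δ and 26.4 and 23.4% in ies6Δ. With the array at 1, the adenines had levels of 1.83 and 2.00 in isw2Δ and 1.41 and 1.65 in ies6Δ. Adenines were thus higher here in isw2Δ, although the window as a whole, at 181 to 210, was at 1.83 and 1.98 in isw2Δ and 1.80 and 1.99 in ies6Δ. In the stretch of the gene side, the 14 adenines were at 31.5 and 30.2% in isw2Δ and 18.9 and 16.6% in ies6Δ, with levels of 2.57 and 2.56 and of 1.85 and 1.85. Along the run of 7 T at 184 to 190, adenine methylation on the opposite strand rose from 9.49 and 10.4% to 33.1 and 34.6% in isw2Δ, from 5.26 and 3.85% to 20.8 and 24.0% in ies6Δ, and from 2.56 to 7.82% in wildtype. The only A of the printed strand in the center stretch was its most methylated adenine, at 68.3 and 66.5% in isw2Δ, at 56.4 and 55.3% in ies6Δ and at 19.7% in wildtype. The study states that its methylation calls vary with sequence context and fall short of single-base resolution. Whether differences between neighbouring bases reflect accessibility was not tested.

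In wildtype, the promoter had a high center between lower flanks. The center was at a level of 2.99, 1.26 times that of the origin NFR of the same ring (2.37) and 5.02 times that of the 30 bp before the promoter (0.594). The 30-bp running mean reached 4.203 at position 135 and was 3.98 at 168, with a dip to 2.79 between them and a further, lower peak of 3.00 at 222. The flanks were at 1.59 on the ARS side and 1.38 on the gene side. The gene-side tile of the center (2.41) was at 0.677 of the ARS-side tile (3.56), and this ratio was between 0.663 and 0.721 in the mutants. The lower gene-side tile was found on reverse reads only, with 1.76 against 3.78 in wildtype. On forward reads it was the higher tile, with 3.74 against 3.38 in wildtype. The mutants had 2.56 and 2.56 against 2.50 and 2.55 in isw2Δ, and 2.55 and 2.79 against 2.54 and 2.69 in ies6Δ, on forward reads. In the mutants the center was as high as the origin NFR, with ratios of 0.987 and 1.01 in isw2Δ and 0.977 and 0.940 in ies6Δ. These ratios depended on the strand, with 1.85 in wildtype on forward reads and 0.917 on reverse reads, and the ratio of wildtype stayed above the means of both mutants on each strand.

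**Figure D3:**
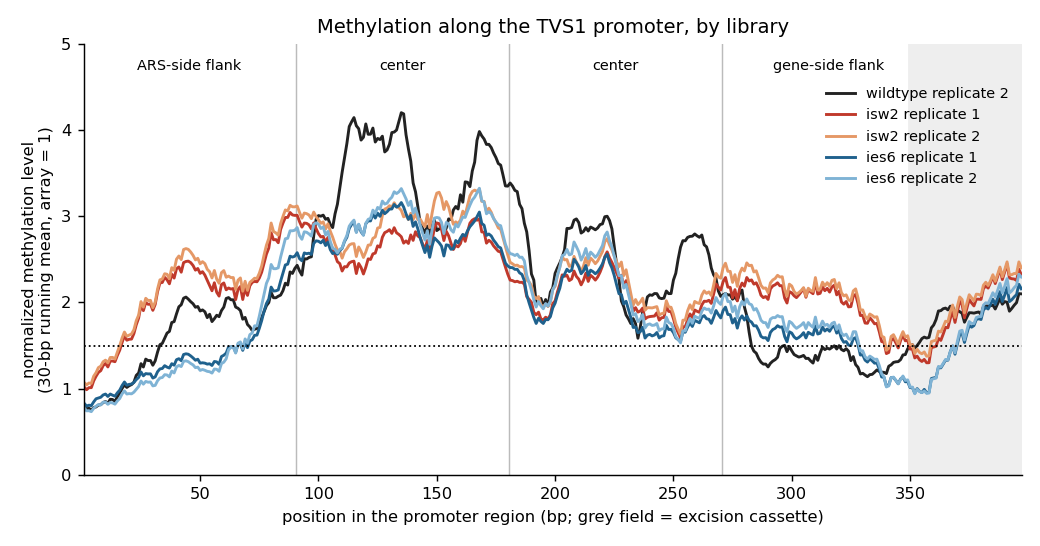
Normalized methylation level (30-bp running mean, mean of the array = 1) of the 5 libraries against the position in the promoter; grey lines part the tiles, the dotted line is the level of 1.5 and the grey field is the cassette. The isw2Δ libraries are highest in most of both flanks, the ies6Δ libraries run lowest at 31 to 60, and the wildtype library peaks at 4.203 in the center.

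Against wildtype, isw2Δ was higher in both flanks and lower in the ARS-side tile of the center. Here the difference in base classes described above runs with the comparison. It was seen over sets of known positions, and the bases of most promoter positions were not known. The ARS-side flank rose from 1.59 in wildtype to 2.13 ± 0.058 (log2 change 0.42, SE 0.12, limma adjusted p = 0.00126) and the gene-side flank from 1.38 to 1.99 ± 0.053 (log2 change 0.52, limma adjusted p = 0.000133). The ARS-side tile of the center fell from 3.56 to 2.89 ± 0.18 (log2 change -0.30, limma adjusted p = 0.0211), whereas the gene-side tile, at 2.41 and 2.05 ± 0.092, did not pass (log2 change -0.23, limma adjusted p = 0.0706). Of all 48 tiles 62.5% were called in this comparison, so that 3 of 4 tiles is near the background. The fall of the center turned with the scale: undivided, isw2Δ was above wildtype by a log2 change of 0.49 in the ARS-side tile and of 0.56 in the gene-side tile, and divided by the naked plasmid the ARS-side tile was at 0.03. The rise of the ARS-side flank was not called on reverse reads alone (log2 change 0.31, limma adjusted p = 0.0631), nor without isw2Δ replicate 1 (0.45, limma adjusted p = 0.0636) or isw2Δ replicate 2 (0.39, limma adjusted p = 0.0687). The rise of the gene-side flank was not called on forward reads alone (0.26, limma adjusted p = 0.0864), nor without isw2Δ replicate 2 (0.50, limma adjusted p = 0.05). The fall of the ARS-side tile of the center was lost without isw2Δ replicate 1 (-0.24) and without isw2Δ replicate 2 (-0.37).

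Of the 13 windows, 6 were called between isw2Δ and wildtype, 4 higher and 2 lower. Over all windows 50.7% were called, 46.1% as higher and 4.61% as lower, so that the share called in the promoter is near the background. On the ARS side, the called windows were those at 1 to 30, with 0.945 in wildtype and 1.446 and 1.498 in isw2Δ (log2 change 0.64), and at 61 to 90, with 1.82 against 2.35 and 2.42 (0.39). On the gene side, they were those at 271 to 300, with 1.35 against 2.1697 and 2.29 (0.72), and that ending at 330, with 1.46 against 2.12 and 2.19 (0.56). The windows that fell lie in the center, at 121 to 150, from 4.19 to 2.69 and 2.99 (-0.56), and at 241 to 270, from 2.76 to 1.80 and 1.90 (-0.57). The other 7 windows had log2 changes between -0.21 and 0.33.

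ies6Δ differed from wildtype in the center and in parts of the flanks. The tiles of the center fell from 3.56 to 2.96 ± 0.12 (log2 change -0.27, limma adjusted p = 0.0414) and from 2.41 to 1.98 ± 0.10 (-0.29, limma adjusted p = 0.0350). Undivided, the log2 changes were 0.20 and 0.18 and did not pass. Without ies6Δ replicate 1 both tiles were at -0.23 and neither passed, and neither passed with only 1 isw2Δ library in the fit (limma adjusted p = 0.125). The ARS-side flank, at 1.59 in wildtype and 1.38 in both ies6Δ libraries, and the gene-side flank, at 1.38 against 1.49 and 1.56, did not pass (log2 changes -0.20 and 0.14). Over its yeast positions alone, the gene-side flank did pass (log2 change 0.28, limma adjusted p = 0.0352). Over all tiles 52.1% were called. Of the 13 windows, 4 were called, against 34.9% of all windows, with 30.9% called as higher and 3.95% as lower in ies6Δ. The 3 that fell were those at 31 to 60, from 2.01 to 1.38 and 1.29 (log2 change -0.59), at 121 to 150, from 4.19 to 3.11 and 3.26 (-0.40), and at 241 to 270, from 2.76 to 1.71 and 1.75 (-0.67). The window at 271 to 300 rose from 1.35 to 1.68 and 1.87 (0.39). With the naked plasmid as the scale, limma called 0 of 13 windows, and 4 had an unadjusted p under 0.05. Over all positions, the center fell against wildtype by a similar size in both mutants, but both comparisons use the same wildtype library. The 16 known adenines of the center stretch went the other way. Relative to the array mean, their level was 0.877 for wildtype, against 1.83 and 2.00 for isw2Δ and 1.41 and 1.65 for ies6Δ. The 5 cytosines in CpG or GpC of this stretch were methylated at 32.8% in wildtype and at 21.9 to 26.4% over the mutant libraries. How much of the fall of the center stems from the base classes was not tested.

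Among the known adenines the shape of the promoter did not follow that of all positions. The adenines of the gene-side stretch were methylated 1.57 times as much as those of the center stretch in wildtype, against 1.41 and 1.28 times in isw2Δ and 1.31 and 1.12 times in ies6Δ. Over all positions the ratio of the gene-side flank to the center was higher in both mutants than in wildtype, and over these 30 adenines it was lower. As percent of the adenines of the naked plasmid, the center stretch of wildtype was at 17.1%, that of isw2Δ at 37.9 and 38.7%, and that of ies6Δ at 24.8 and 25.1%. For the gene-side stretch these values were 26.9%, 53.3 and 49.5%, and 32.6 and 28.1%. On this scale the adenines of both stretches were highest in isw2Δ, and those of the gene side in ies6Δ replicate 2 were close to wildtype. These stretches cover 50 of the 349 yeast positions and none of the ARS-side flank.

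The width of the open promoter was taken as the stretch around the highest 30-bp running mean in which the running mean stays at a level of at least 1.5, with gaps of up to 30 bp bridged. It ran from 33 to 297 in wildtype (265 bp), from 17 to 397 in both isw2Δ libraries (381 bp) and from 66 to 328 in both ies6Δ libraries (263 bp). In isw2Δ, the border on the ARS side was thus 49 bp nearer the origin than in ies6Δ and 16 bp nearer than in wildtype. On the gene side the stretch of isw2Δ went on to the end of the ring, through the last 48 positions, which are cassette. Its width there is cut by the end of the table, and up to the end of the yeast sequence it was 333 bp. Inside the stretch the running mean of isw2Δ dipped below the level for 15 and 9 bp, to 1.30 and 1.38 at 357, and that of wildtype for 14 bp, to 1.25 at 290. In wildtype and in ies6Δ the stretch ended within the yeast sequence. There the gap before the cassette was longer than 30 bp and was not bridged. The cassette itself had a mean level above 1.5 in every library. Over its 48 positions, isw2Δ libraries averaged 1.92 and 1.99, those of ies6Δ 1.62 and 1.66, and the wildtype library 1.96. The 381 bp of isw2Δ thus include cassette positions whose high level was not specific to isw2Δ.

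isw2Δ and ies6Δ kept this order at other levels, but wildtype did not keep its place. At a level of 2 the stretch ran from 32 to 327 and from 25 to 328 in isw2Δ (mean width 300 bp), and it was 152 and 155 bp in ies6Δ and 237 bp in wildtype. At a level of 1 it was 397 bp in both isw2Δ libraries, 381 and 374 bp in ies6Δ and 381 bp in wildtype. Between the positions of mid-height of the peak of each library, which needs no spike-in, it ran from 17 and 22 to 397 in isw2Δ, and was 255 and 248 bp in ies6Δ and 200 bp in wildtype. isw2Δ was the widest in all of these. ies6Δ was narrower than wildtype at a level of 2, within 2 bp of it at 1.5 and wider at mid-height, so that no order of these 2 groups can be given. Widths are single values of a library and were not tested.

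**Figure D4:**
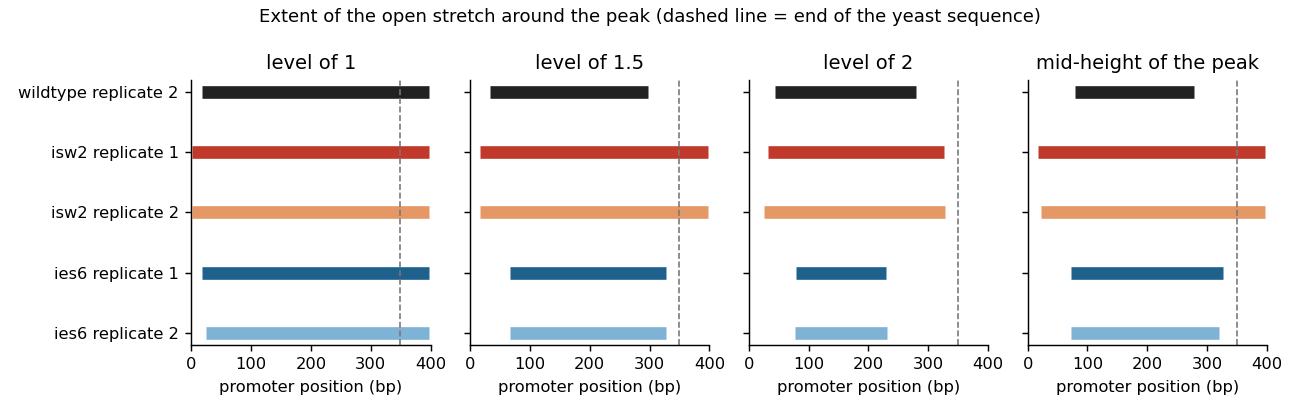
Extent in promoter positions (bp) of the open stretch around the peak in each library at levels of 1, 1.5 and 2 and at the mid-height of the peak of the library. The bars of both isw2Δ libraries are the longest in each panel, and the dashed line marks the last yeast position, 349.

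On single molecules, a tile or the center was called open where the share of methylated bases on the strand read was at least 1.5 times the array mean of the library. The center was open in 88.3% of 1477 wildtype molecules (95% Wilson interval 86.5 to 89.8%), in 84.7 and 91.7% of 1560 molecules of the isw2Δ libraries and in 82.2 and 83.7% of those of ies6Δ. Intervals cover counting error only, since molecules are not replicates. The isw2Δ libraries differed from each other by more than their distance to wildtype, so that no difference of isw2Δ from wildtype was detectable, and both isw2Δ libraries lay above both ies6Δ libraries. With a fixed share of 20% of bases and no array, open centers were found in 53.5% of wildtype, 81.5 and 87.4% of isw2Δ and 65.6 and 62.1% of ies6Δ molecules.

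The flanks were open in far more molecules in isw2Δ. The ARS-side flank was open in 60.8 and 64.1% of isw2Δ molecules, 37.3 and 34.2% of ies6Δ molecules and 37.3% of wildtype molecules. The gene-side flank was open in 56.8 and 61.0%, 41.7 and 42.3%, and 33.9%, in the same order. Of the other tiles, the ARS-side tile of the center was open in 82.9 to 92.6% and the gene-side tile in 61.6 to 74.7% of molecules over the 5 libraries. All 4 tiles were open in 28.7 and 33.0% of isw2Δ molecules (30.8% ± 3.1, SD, n = 2), 13.8 and 11.99% of ies6Δ molecules (12.9% ± 1.3, SD, n = 2) and 11.8% of wildtype molecules. A center open between closed flanks was found in 13.4 and 14.4% of isw2Δ, 28.7 and 30.1% of ies6Δ and 37.9% of wildtype molecules. Molecules with none of the tiles open were rare, with 3.01 and 0.897% in isw2Δ, 6.03 and 5.83% in ies6Δ and 4.198% in wildtype. When a fixed share of 20% of bases defined open molecules, the share in wildtype dropped to 19.97% for the ARS-side flank, 18.9% for the gene-side flank and 3.25% for all 4 tiles, while the means of isw2Δ were 59.0, 58.1 and 28.2% and those of ies6Δ 26.2, 34.5 and 6.92%.

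**Figure D5:**
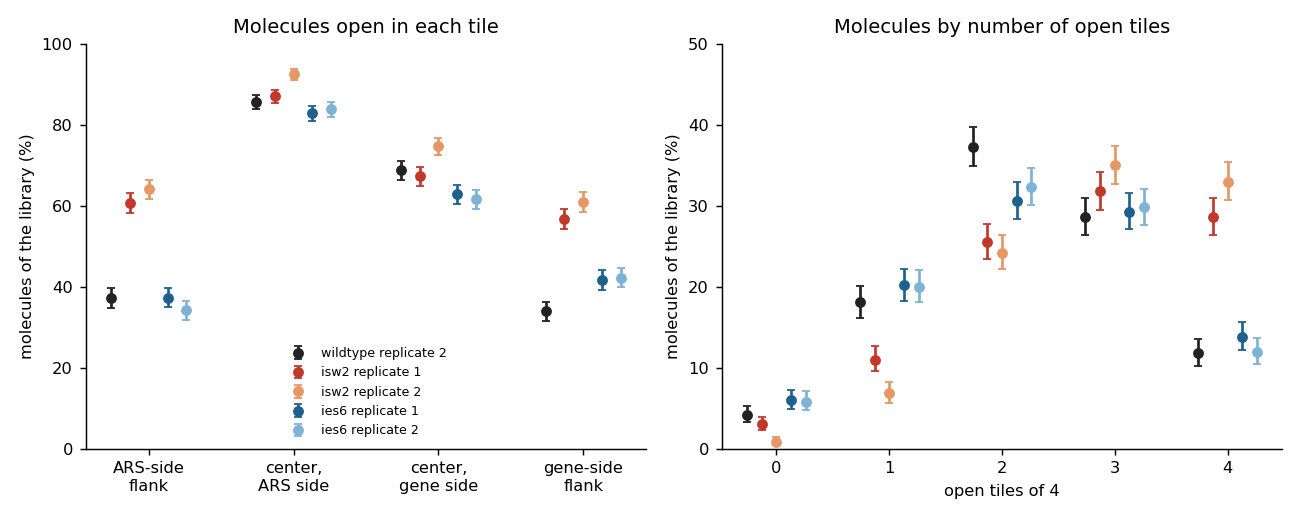
Percent of molecules of each library that were open in each of the 4 tiles (left) and percent with 0 to 4 open tiles (right), with 95% Wilson intervals. In both flanks the isw2Δ libraries, at 56.8 to 64.1%, lie above the other libraries, at 33.9 to 42.3%, and molecules with 4 open tiles are at 28.7 and 33.0% in isw2Δ against 11.8 to 13.8% elsewhere.

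Flanks were open more often on molecules with an open center. In wildtype the ARS-side flank was open in 39.5% of molecules with an open center and in 20.8% of those with a closed center, and in isw2Δ in 64.9 and 65.7% against 37.8 and 46.5%. In ies6Δ these shares were 41.2 and 37.8% against 19.5 and 16.1%. The gene-side flank was open in 35.4% against 23.1% in wildtype, 60.1 and 62.5% against 38.2 and 44.2% in isw2Δ, and 45.2 and 45.4% against 25.3 and 26.7% in ies6Δ. Among isw2Δ molecules with an open center, flanks were open more often than in ies6Δ, so that the higher share of open flanks was also found where the center was open. The origin NFR of the ring was open in 62.1% of wildtype molecules with an open promoter center and in 53.2% of those with a closed one, and in 76.7 to 82.3% against 61.0 to 69.0% over the mutant libraries. In wildtype this turned to 68.0% against 72.3% with molecules of at least 5% methylation.

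Protected stretches gave the same order of isw2Δ and ies6Δ. A footprint was taken as a stretch of at least 120 bp without a methylated base on the strand read. Such a footprint covered position 45, in the ARS-side flank, in 18.9 and 15.3% of isw2Δ molecules, 37.1 and 43.3% of ies6Δ molecules and 45.0% of wildtype molecules. At 315, in the gene-side flank, shares were 11.03 and 7.24%, 19.7 and 23.1%, and 28.6%. With the length of a nucleosome core as the minimum, the shares at 315 were 9.41% in wildtype and on average 2.56% in isw2Δ and 8.78% in ies6Δ, so that isw2Δ stayed below ies6Δ and the distance between ies6Δ and wildtype was small. At 180, in the center, they were 2.88 and 0.962%, 5.19 and 5.96%, and 5.75%. Footprints are read without a spike-in, and the middle of the array was covered in 29.3 and 31.2% of molecules in isw2Δ, 38.7 and 46.2% in ies6Δ and 51.5% in wildtype, which is the same order. Relative to the array the ARS-side flank was covered less in isw2Δ and about as often in ies6Δ. In the naked plasmid, 0.256 to 3.97% of molecules had such a stretch in the middle. The median of the longest unmethylated stretch within the 349 yeast positions was 51 and 48 bp in isw2Δ, 77 and 82 bp in ies6Δ and 83 bp in wildtype.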

How the data were processed

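MATAC-Seq tables of 5 libraries were analysed. Fractions of 0 or 1 for each read and position were deposited by library, locus and strand, not normalized, after Megalodon calls and the study's own cutoffs, with R64 named as build. Positions 1 to 397 of the text are columns 841 to 1237 of the ARS315 tables. Means of forward and reverse reads were joined and divided by the array mean. log2 levels of 152 windows and of 48 tiles of 4 rings were fitted with limma 3.58.1 (R 4.3.3) over 3 groups and 3 contrasts, adjusted by Benjamini-Hochberg at 0.05. The fit was also run on simulated data with independent noise of equal size in all windows or tiles. Such data cannot show the effect of errors that windows or tiles of a library share. An exact permutation test of 2 libraries against 1 or 2 cannot go below 0.333. All tiles and windows are accounted for. Windows to be named were the 2 called ones with the largest change in each contrast on either side of the center, and the other called windows are given too. Of the study's 106 primers, parts of at least 18 bases were placed by the strand pattern. Python 3.11.15, NumPy 2.4.6, SciPy 1.17.1 and Matplotlib 3.10.9 were used. 1 incomplete line of the naked plasmid was left out. Region, tiles and measures were chosen with earlier results of these data known. Footprints were also taken at 100 and 147 bp. The alternatives for molecule patterns and for the center over the origin NFR, the yeast positions, the known adenines and the scale of 0.5 of the naked plasmid were chosen after seeing the data.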

Additional observations from a re-analysis of the deposited data

Results flagged for a closer look

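The difference between isw2Δ and ies6Δ was tested directly, and 2 tiles and 3 windows of the promoter passed. The ARS-side flank was higher in isw2Δ by a log2 change of 0.62 and the gene-side flank by 0.38. The windows were those at 1 to 30 (log2 change 0.66), 31 to 60 (0.92) and the window that ends at 360 (0.51). All 5 were higher in both isw2Δ libraries than in both ies6Δ libraries.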

How the results depend on the processing

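Alternatives were run for tiles, window counts, the center level, widths, flank-to-center ratios, molecule shares, footprints and the center over the origin NFR. The yeast positions alone, 0.5 of the naked plasmid, the known adenines and all alternatives for molecule patterns other than the open center and for the center over the origin NFR were chosen after seeing the data. The changes of both flanks between isw2Δ and ies6Δ kept their direction in every alternative run. There were 2 libraries of each mutant and 1 of wildtype, which differs from them in the methylation of base classes. The cause of the differences between settings was not tested. Widths, borders and open molecules have no value without the array or with the naked plasmid in its place at the level of 1.5, which is a multiple of the array mean.

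Counts of called promoter windows were 11 (isw2Δ against wildtype) and 6 (isw2Δ against ies6Δ) without normalization, 0 for ies6Δ against wildtype and 6 for isw2Δ against ies6Δ with the naked plasmid, and 12, 7 and 6 of 19 with windows of 20 bp. Between isw2Δ and ies6Δ they were 6 with a trend in limma and 1 on forward reads. Shares over all windows were taken for the main setting only. Window counts under other settings, here and elsewhere in the text, therefore cannot be set against a background. 

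The libraries share replicate numbers, which the labels do not tie to a shared culture or day. Deviations of mutants with the same number correlated at 0.113 over 152 windows and 0.385 over the 13 promoter windows, and with 2 pairs a pairing was not established. With a replicate block, 6, 3 and 3 windows were called for isw2Δ against wildtype, ies6Δ against wildtype and isw2Δ against ies6Δ. The block ended the calls of the ARS-side tile of the center against wildtype, at log2 changes of -0.25 in isw2Δ and -0.22 in ies6Δ, and of its gene-side tile in ies6Δ (-0.24). It changed no call between isw2Δ and ies6Δ among the tiles.

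For the tiles, log2 changes are given where a call or a direction changed. In the ARS-side flank, isw2Δ against wildtype was not called on reverse reads (0.31), with molecules of at least 5% methylation (0.26) or with 1 isw2Δ library left out (0.39 to 0.45), and ies6Δ against wildtype was called on reverse reads (-0.46) and with molecules of at least 5% (-0.33). isw2Δ against ies6Δ ranged from 0.59 to 0.65 with 1 library left out. In the ARS-side tile of the center, isw2Δ against wildtype turned to 0.49 without normalization and to 0.033 with the naked plasmid, was not called on reverse reads (-0.19), and ranged from -0.37 to -0.24 with 1 library left out. ies6Δ against wildtype turned to 0.20 without normalization and was not called with a trend in limma (-0.27), with the naked plasmid (-0.21) or on reverse reads (-0.18), nor without either isw2Δ library or ies6Δ replicate 1 (-0.31 to -0.23 over all libraries left out). In the gene-side tile of the center, isw2Δ against wildtype turned to 0.56 without normalization and was called with a trend (-0.23), on forward reads (-0.55) and without either ies6Δ library (-0.28 to -0.19 over all libraries left out). ies6Δ against wildtype turned to 0.18 without normalization and was not called with the naked plasmid (-0.23), on reverse reads (-0.10), nor without either isw2Δ library or ies6Δ replicate 1 (-0.34 to -0.23 over all libraries left out). isw2Δ against ies6Δ was called there without normalization (0.38). In the gene-side flank, isw2Δ against wildtype was not called on forward reads (0.26) or without isw2Δ replicate 2 (0.50 to 0.55 over all libraries left out). ies6Δ against wildtype was called without normalization (0.61) and over yeast positions (0.28). isw2Δ against ies6Δ was not called on forward reads (0.32) and ranged from 0.35 to 0.42 with 1 library left out.

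The log2 ratio of the center level between isw2Δ and wildtype moved to 0.52 without normalization, 0.063 with the naked plasmid, -0.47 on forward and -0.085 on reverse reads. Between ies6Δ and wildtype it moved to 0.19 without normalization, -0.41 on forward and -0.14 on reverse reads, and between isw2Δ and ies6Δ to 0.33 without normalization and 0.28 with the naked plasmid.

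Mean widths in wildtype, isw2Δ and ies6Δ were 291, 313 and 253 bp on forward reads, 257, 384 and 288.5 bp on reverse reads, and 366, 381.5 and 266.5 bp with molecules of at least 5%. They were 285, 383 and 272 bp with a 15-bp running mean, 262, 383 and 259.5 bp with a 50-bp one, 381, 397 and 377.5 bp at a level of 1, 237, 300 and 153.5 bp at 2, 200, 378.5 and 251.5 bp at mid-height, and 242, 382.5 and 241 bp at 0.5 of the naked plasmid. Over yeast positions isw2Δ was at 333 bp. isw2Δ was the widest in 11 of 11 settings, and ies6Δ was wider than wildtype in 2.

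The share of molecules with an open center in wildtype was 92.4% on forward and 84.4% on reverse reads, 90.9% with molecules of at least 5%, 94.0% when open at 1, 78.5% at 2, 53.5% at 20% of bases and 84.4% at 0.5 of the naked plasmid. In isw2Δ it was 95.4% at 1 and 71.5% at 2. In ies6Δ it was 85.2% on forward and 81.0% on reverse reads, 84.4% with molecules of at least 5%, 91.1% at 1, 67.0% at 2, 63.8% at 20% of bases and 77.2% at 0.5 of the naked plasmid.

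The log2 ratio of the ARS-side flank to the center, against wildtype, moved to 0.93, 0.40 and 0.60 in isw2Δ and to 0.35, -0.32 and -0.0011 in ies6Δ on forward reads, on reverse reads and with molecules of at least 5%. Between isw2Δ and ies6Δ it moved to 0.72 on reverse reads. For the gene-side flank it moved to 0.73, 0.84 and 0.73 in isw2Δ and to 0.35, 0.47 and 0.36 in ies6Δ under the same settings, to 0.83 and 0.45 with sites of at least 5%, to 0.92 and 0.55 over yeast positions, and to -0.23 and -0.37 over known adenines, where isw2Δ against ies6Δ was at 0.14.

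Both flanks were open in more isw2Δ than ies6Δ molecules in 8 of 8 settings, by 22.7 to 35.9 percentage points on the ARS side and 14.2 to 23.6 on the gene side, and so were all 4 tiles (by 11.5 to 23.8). No open tile, and a center open between closed flanks, were rarer in isw2Δ than in ies6Δ in all 8. ies6Δ was above wildtype in 2 of 8 settings for the ARS-side flank, 8 for the gene-side flank and 4 for all tiles. Over 40 pairs of a setting and a library, each flank was open more often with an open center in 40 and the origin NFR in 39. Among molecules with a closed center, the origin NFR was open more often in isw2Δ than in ies6Δ in only 4 of 8 settings. For the ratio of the center to the origin NFR, isw2Δ exceeded ies6Δ by 0.031 to 0.055 in 5 of 5 settings.

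Footprints were rarer in isw2Δ than in ies6Δ in 6 of 6 settings at each of the 3 positions. With a minimum of 100 bp, the shares in wildtype, isw2Δ and ies6Δ were 49.5, 19.6 and 46.1% in the ARS-side flank and 37.0, 13.1 and 28.8% in the gene-side flank. With the length of a nucleosome core they were 37.9, 13.04 and 31.1% and 9.41, 2.56 and 8.78%.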
